A study of Mus musculus with 22 samples.

Results

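Scurfy CD4+ T cells that carried a human FOXP3 vector (FOXP3 cells) were compared with wild-type regulatory T cells (WT Treg) after both had lived in scurfy recipients. All libraries whose titles name the FOXP3 vector or WT Treg were taken, which gave 16 of the 22 libraries, 10 of FOXP3 cells and 6 of WT Treg. Each title carries a code such as F1, and 2 libraries share a code. Counts were summed per code, so that 5 FOXP3 codes (F1, F2, F5, N2 and N3) were set against 3 WT Treg codes (E2, G4 and L1). The other 6 libraries, 3 codes of scurfy cells with the empty vector (LNGFR cells), entered only to share the estimate of spread, and their values stand beside those of the 2 groups where they help. Nothing in the labels ties a code to an animal. The p-values therefore reflect variation among codes, which may be partly technical.

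All recipients were scurfy mice, which lack functional Foxp3. They were given cyclophosphamide at 50 mg/kg at 10 days of age, received cells intraperitoneally on day 14, and were then treated with human IL-2 at 1000 IU/g, daily for 5 days and weekly after that. FOXP3 cells came from lymph node CD4+ T cells of 10-day-old scurfy mice and expressed human FOXP3 with LNGFR, a truncated nerve growth factor receptor that serves as surface reporter. WT Treg were CD4+CD25+ cells of CD45.1+ donors and carried no vector. On day 50, 1000 CD4+ cells per library were sorted from lymph nodes by LNGFR or by CD45.1. The strain label is C57BL/6 and the genotype label names the scurfy mutation for every library, WT Treg included. Donor genotype, the CD45.1 allele, the vector, the starting population and the sort marker all differ between the groups and cannot be told apart from the cell type. All FOXP3 codes begin with F or N and all WT Treg codes with E, G or L. What the letters mark is not stated, and it cannot be told apart from the group either.

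As background, regulatory T cells restrain immune responses, and the transcription factor FOXP3 both marks them and maintains much of their programme. That programme includes a high-affinity IL-2 receptor, inhibitory receptors such as CTLA-4, and the surface machinery that activates latent TGF-beta. In scurfy mice a mutation of Foxp3 leaves T cells without suppression, and activated effector T cells, many of them making type 2 cytokines, fill the lymph nodes.

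The FOXP3 codes held 8344444 to 10376164 counts each, against 1154626 in E2, 5946290 in G4 and 7088371 in L1. In E2, 54.8% of counts fell on the repeat-derived Gm10800 family of gene models, compared with 2.51% to 2.94% in FOXP3 codes, 4.41% in G4 and 3.75% in L1. The pair of E2 libraries also resembled each other less, with a correlation across genes of 0.79 against 0.96 to 0.98 for the pairs of every other FOXP3 and WT Treg code. Xist was at 61.2 CPM (counts scaled to 1000000 per code) in E2 and at 0.232 to 2.69 CPM in the other 7 codes, while male-specific genes were present in all 8. In N3, 12 B-cell markers summed to 10504 CPM, while the remaining FOXP3 codes ranged from 569 to 1296 CPM and WT Treg codes from 241 to 647 CPM. For plasma-cell markers the sum was 2784 CPM in N3, between 298 and 538 CPM in F1, F2, F5 and N2, and between 102 and 553 CPM in WT Treg. Markers of CD8 and NK cells summed to 8.26 to 16.5 CPM in FOXP3 codes and 31.9 to 51.1 CPM in WT Treg codes, and myeloid markers to 12.1 to 28.8 CPM and 33.5 to 78.9 CPM. CD4 T-cell markers were present in every code, at 3245 to 5304 CPM in FOXP3 codes, 4673 and 5070 CPM in L1 and G4, and 1193 CPM in E2. These sums are scaled to all counts of a code, so those of E2 are lowered by its repeat-derived share. Whether that share accounts for the whole of the low CD4 T-cell sum in E2 was not tested. Because of these differences, each result below was also computed without E2 and N3, which left 4 FOXP3 codes and 2 WT Treg codes.

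**Figure D1:**
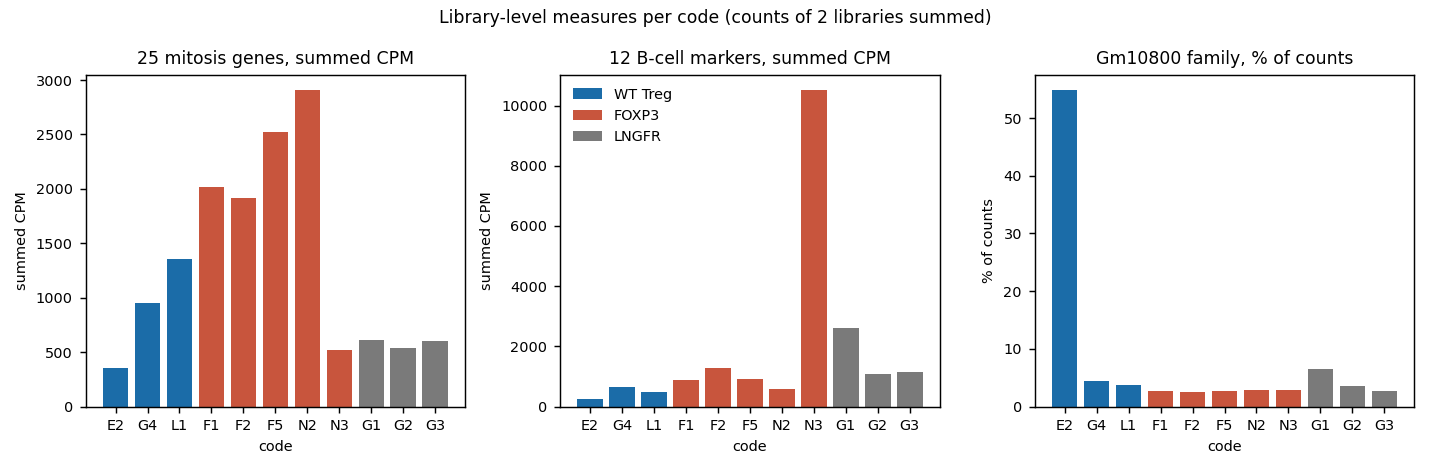
Bars show, for each code, the summed CPM of 25 mitosis genes, the summed CPM of 12 B-cell markers and the percent of counts on the Gm10800 family, with colours for WT Treg, FOXP3 and LNGFR codes. B-cell markers reached 10504 CPM in N3, the Gm10800 family took 54.8% of counts in E2, and mitosis genes were high in 4 of 5 FOXP3 codes.

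Of 15462 genes tested with edgeR's quasi-likelihood test, 21 (0.136%) were higher and 19 (0.123%) lower in FOXP3 cells than in WT Treg at a Benjamini-Hochberg adjusted p under 0.05. Genes higher in FOXP3 cells included the receptors Cxcr6, Ccr1, Ltb4r1 and Cysltr1, and the cytokines Il4 and Tnfsf8. Genes lower in FOXP3 cells included Foxp3, Gpr83, Itgb8, Ctse and Cxcr4. Every one of the 40 genes kept the FOXP3 codes apart from the WT Treg codes. Over all genes, 947 (6.12%) had every FOXP3 code above every WT Treg code and 967 (6.25%) the reverse. An unadjusted p under 0.05 was found for 2547 genes, 678 higher and 1869 lower. On the other side, the 95% interval of the fold change lay wholly within 2-fold for 4014 genes (26.0%), and these are described as kept.

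The number of called genes depended strongly on the codes used. Without E2 and N3, 56 of 15670 genes (0.357%) were higher and 43 (0.274%) lower, with 35 of the 40 calls shared. The calls for Itgb8, Ccdc85b, Acbd6, Espn and Stc2 were lost there. Without L1 alone, only 3 higher and 1 lower call remained of the 40, namely Ccr1, Cxcr6, Gm43305 and Cpq, which passed in all 8 fits that left out 1 FOXP3 or WT Treg code. Counting every such fit other than the one without L1, 13 genes kept their call: these 4 with Arrdc4, Ctse, Tbc1d30, Gm43769, Il4, Msc, Fam20a, Fcgrt and C030034L19Rik. Each of the other called genes lost its call in at least 1 of those fits. Without G4, 61 genes were higher and 1168 lower. Leaving out G1, an LNGFR code whose pair of libraries had a correlation of only 0.24, gave 67 higher and 81 lower, all 40 calls included. With limma-voom and a quality weight for each code, in place of equal weights, 353 genes (2.28%) were higher and 713 (4.61%) lower, again with all 40 shared. The median log2 fold change over all tested genes was 0.01.

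**Figure D2:**
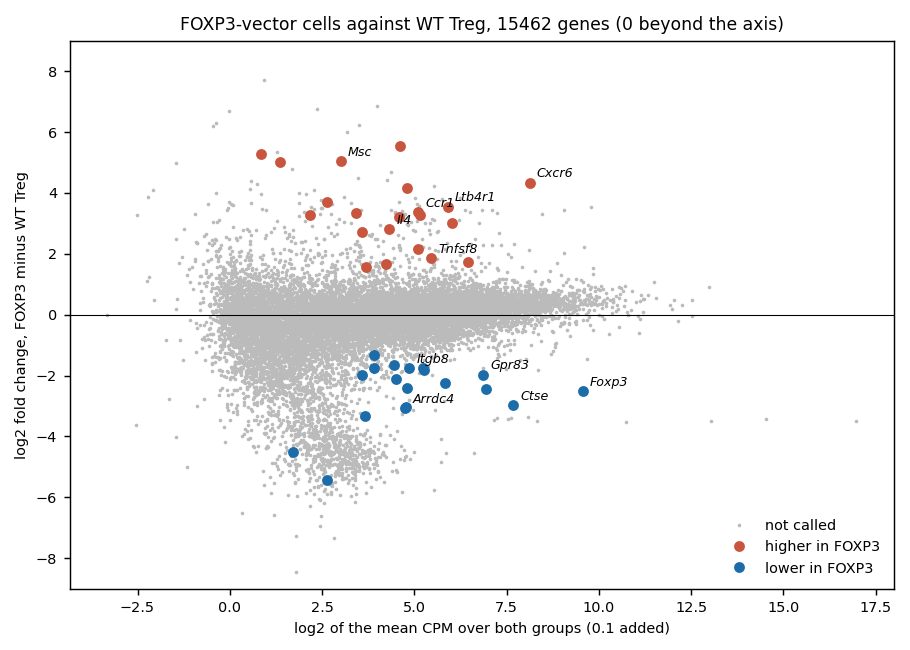
Each point is 1 of 15462 genes, with the log2 of its mean CPM over both groups on the horizontal axis and the log2 fold change of FOXP3 minus WT Treg on the vertical axis. Coloured points are the 21 genes higher and 19 lower at an adjusted p under 0.05, and the cloud of uncalled points below -3 consists mostly of genes with a high value in E2 alone.

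Many fitted values below WT Treg came from E2. Of 847 genes with a log2 fold change under -3, 790 were more than 5 times higher in E2 than in both other WT Treg codes. Only 5 of the 847 were called.

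Foxp3 itself (GRCm38 chromosome X, 7573644 to 7595245) was lower in FOXP3 cells. The counts are of the mouse gene, and FOXP3 codes stood at 215, 310, 215, 229 and 160 CPM for F1, F2, F5, N2 and N3. WT Treg codes stood at 696, 1563 and 1612 CPM for E2, G4 and L1, so the highest FOXP3 code was below the lowest WT Treg code. The log2 fold change was -2.52 ± 0.40 (SE, edgeR adjusted p = 0.0192), and -2.71 without E2 and N3 (adjusted p = 0.0171). The call ended when F1, F5, N2, L1 or the LNGFR code G2 was left out, with log2 fold changes of -2.81 to -2.22 and an adjusted p of up to 0.109. LNGFR codes held 42.2, 71.8 and 141 CPM, below every FOXP3 code. Mouse Foxp3 counts in FOXP3 cells could come from the scurfy allele, which is still transcribed, or from reads of the human vector placed on the mouse gene, and which of these applied was not tested. Mouse Ngfr, whose human counterpart is the reporter, had too few counts to be tested, with 0.107 to 4.52 CPM in FOXP3 codes and 0 to 1.30 CPM in WT Treg codes.

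Forkhead proteins such as FOXP3 bind DNA that holds the letters TGTTTA, so the 250 bases before each RefSeq start (GRCm38.p6) were searched for TGTTTA on either strand (TAAACA on the other). It occurred in 3952 of 32851 such windows (12%). Of the 40 called genes 26 matched by symbol, and 7 of them (26.9%) held it, 5 of 15 higher and 2 of 11 lower, against 9.76% of the 10629 tested genes that matched. A match describes letters only. Windows are shown for Foxp3, which has the motif, for Yod1, a called gene with the motif whose product is a deubiquitinase, and for Cxcr6, the most abundant of the genes higher in FOXP3 cells, which has none. A further RefSeq start of Foxp3 has a window without the motif (chrX:7580233-7580482). The windows shown are read 5′ to 3′ on the gene's strand, which is plus for all 3, with motif bases in capitals. Positions are chrX:7579426-7579675, chr1:130717077-130717326 and chr9:123806227-123806476.
Foxp3: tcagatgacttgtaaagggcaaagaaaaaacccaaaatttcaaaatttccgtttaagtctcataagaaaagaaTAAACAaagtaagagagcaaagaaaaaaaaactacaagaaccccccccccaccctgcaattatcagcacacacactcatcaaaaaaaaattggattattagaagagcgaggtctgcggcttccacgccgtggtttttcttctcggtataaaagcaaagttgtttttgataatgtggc
Yod1: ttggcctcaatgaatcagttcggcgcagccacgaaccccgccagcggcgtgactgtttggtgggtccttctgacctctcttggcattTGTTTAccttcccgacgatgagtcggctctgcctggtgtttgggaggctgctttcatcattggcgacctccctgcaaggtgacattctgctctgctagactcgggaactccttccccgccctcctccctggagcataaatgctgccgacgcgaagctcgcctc
Cxcr6: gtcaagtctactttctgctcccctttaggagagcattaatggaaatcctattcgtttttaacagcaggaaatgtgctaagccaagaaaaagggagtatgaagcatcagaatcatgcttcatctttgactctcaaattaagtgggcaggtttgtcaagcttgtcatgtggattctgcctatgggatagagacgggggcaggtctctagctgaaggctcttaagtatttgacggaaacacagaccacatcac

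Of 40 genes typical of Treg, 3 were lower in FOXP3 cells than in WT Treg and 0 higher, with a median log2 fold change of -0.09 and 18 of 40 above 0. Besides Foxp3 these were Gpr83 and Itgb8. Gpr83, a G protein-coupled receptor enriched on Treg (chromosome 9, 14860210 to 14870789), was at 77.3, 45.3, 33.3, 29.5 and 53.0 CPM in F1, F2, F5, N2 and N3, and at 95.03, 262 and 201 CPM in E2, G4 and L1. The groups did not overlap, but F1 came close to E2. Its log2 fold change was -1.98 ± 0.36 (edgeR adjusted p = 0.036), and the call ended without F2, F5, N2, N3, G4, L1 or either of the LNGFR codes G2 and G3, with an adjusted p of up to 0.128. LNGFR codes held only 11.4 to 13.8 CPM of Gpr83.

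Itgb8, the beta chain of the integrin that releases active TGF-beta (chromosome 12, 119158022 to 119238802), was at 9.75, 20.7, 15.1, 10.8 and 9.15 CPM in FOXP3 codes and 54.7, 39.5 and 40.2 CPM in WT Treg codes. All 3 WT Treg codes were thus near or above 40 CPM and no FOXP3 code exceeded 21 CPM. Itgb8 had a log2 fold change of -1.75 ± 0.30 (edgeR adjusted p = 0.0275). This call ended without E2 and N3, at -1.49 ± 0.31 (adjusted p = 0.0708), and also without F1, F5, N2, E2, L1, G2 or G3 alone, and LNGFR codes held 3.17 to 5.32 CPM. Itgav, the alpha chain of that integrin, had 19.1 to 30.2 CPM in FOXP3 codes and 43.0 to 64.1 CPM in WT Treg codes, with a log2 fold change of -1.16 ± 0.29 that missed the threshold (adjusted p = 0.0866). Lrrc32, which holds latent TGF-beta on the Treg surface, overlapped between groups, with 75.2 to 206 CPM against 200 to 449 CPM (log2 fold change -1.50 ± 0.40, adjusted p = 0.0933).

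Helios and Eos, transcription factors of the Ikaros family that mark Treg, also missed the threshold. Ikzf2, which encodes Helios, stood at 303, 450, 312, 280 and 198 CPM in FOXP3 codes and 374, 755 and 667 CPM in WT Treg codes, where E2 lay below F2. The log2 fold change of Ikzf2 was -0.96 ± 0.34 (edgeR adjusted p = 0.169), and that of Ikzf4, which encodes Eos, -0.99 ± 0.31 (adjusted p = 0.122). With limma and quality weights both passed, at -1.03 (adjusted p = 0.00964) and -1.08 (adjusted p = 0.00637). In that fit 8 of the 40 Treg genes were lower and 3 higher: Foxp3, Ikzf2, Ikzf4, Itgb8, Lrrc32, Gpr83, Il1r2 and Plagl1 against Il10, Gpr15 and S1pr4. Without E2 and N3, edgeR called 2 lower and 0 higher, and the list's median was -0.35.

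**Figure D3:**
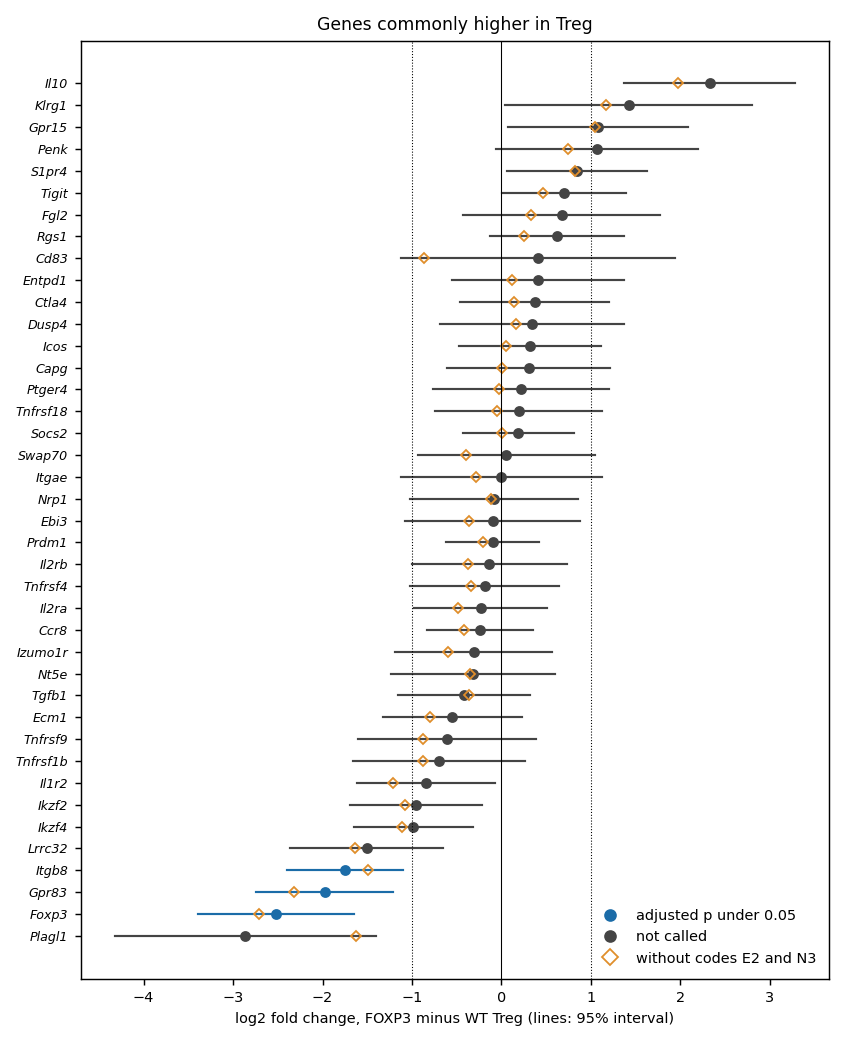
The log2 fold change of FOXP3 minus WT Treg is shown for 40 genes commonly higher in Treg, with lines for 95% intervals, blue for the 3 genes with an adjusted p under 0.05 and open diamonds for the values without codes E2 and N3. Foxp3, Gpr83 and Itgb8 lie below -1 with the uncalled Plagl1 and Lrrc32, Plagl1 is the lowest point at -2.86, Il10 is the highest at 2.33, and most intervals include 0.

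Outside the Treg list, Ctse, the aspartic protease cathepsin E (chromosome 1, 131638306 to 131675505), showed a wide separation. FOXP3 codes held 34.8, 48.5, 43.7, 52.2 and 50.5 CPM of Ctse and WT Treg codes 197, 433 and 458 CPM. FOXP3 codes were all within a narrow range, and the lowest WT Treg code was far above it. The log2 fold change was -2.98 ± 0.34 (edgeR adjusted p = 0.00246). Ctse in LNGFR codes, at 35.9 to 87.7 CPM, overlapped that in FOXP3 codes.

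Arrdc4, an alpha-arrestin that limits glucose uptake, was at 4.29, 9.30, 3.84, 7.28 and 4.09 CPM in FOXP3 codes and 43.0, 59.2 and 42.5 CPM in WT Treg codes, a log2 fold change of -3.06 ± 0.44 (edgeR adjusted p = 0.0154). Cpq, a carboxypeptidase, was at 11.03, 8.01, 9.70, 7.28 and 7.64 CPM against 53.4, 49.4 and 39.2 CPM. Codes of Cpq agreed closely within each group, and its log2 fold change of -2.43 ± 0.24 (edgeR adjusted p = 0.000801) passed in every fit that left out a code. Cxcr4, the receptor for CXCL12 that guides cells to bone marrow and lymphoid stroma, was at 10.1, 9.02, 9.49, 8.31 and 6.35 CPM against 22.1, 46.0 and 40.7 CPM (log2 fold change -2.10 ± 0.32, adjusted p = 0.0167). Il6st, the signal-transducing gp130 chain shared by IL-6 family receptors, was at 15.2 to 20.4 CPM against 53.4 to 65.8 CPM (log2 fold change -1.81 ± 0.29, adjusted p = 0.0192).

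The other named genes lower in FOXP3 cells were the phosphatase Ppm1l (log2 fold change -3.03), the ubiquitin ligase gene Rnf187 (-2.46), the intraflagellar transport gene Ift80 (-2.24), Nsmce3 of the SMC5/6 complex (-1.98) and Ccdc85b (-1.77). Tbc1d30, Acbd6, Espn, mt-Nd3 and the gene models Gm42646 and Gm43769 were the remaining calls, chosen for naming after their values were seen. Ppm1l and Ift80 lie near each other on chromosome 3 (69316861 to 69560802 and 68892499 to 69004570), and Gm42646 and Gm43769 on chromosome 5 (65857318 to 65858231 and 65911624 to 65915946). The mitochondrial gene mt-Nd3, which encodes a subunit of respiratory complex I, had 12 counts over the 5 FOXP3 codes and 79 over the 3 WT Treg codes, or 0.116 to 0.368 CPM against 5.13 to 7.81 CPM. Nuclear genes of the respiratory chain did not share this direction, as described further on.

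Among genes higher in FOXP3 cells the most abundant was Cxcr6, a receptor for CXCL16 found on effector and tissue T cells (chromosome 9, 123806475 to 123811760). It was at 699, 374, 435, 487 and 660 CPM in FOXP3 codes and 20.8, 20.8 and 35.8 CPM in WT Treg codes. Every FOXP3 code was at least 10 times above every WT Treg code. Cxcr6 had a log2 fold change of 4.34 ± 0.44 (edgeR adjusted p = 0.000801), and LNGFR codes were as high or higher, at 655, 937 and 1400 CPM.

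Ccr1, a receptor for inflammatory chemokines such as CCL5 (chromosome 9, 123962124 to 123968692), was at 81.0, 47.4, 46.0, 72.1 and 64.3 CPM against 6.51, 4.48 and 7.24 CPM. With a log2 fold change of 3.37 ± 0.38 (edgeR adjusted p = 0.00193), Ccr1 passed in every fit that left out a code. Ccr3, the eotaxin receptor, was at 36.8, 37.2, 43.8, 73.2 and 7.0 CPM against 7.81, 1.92 and 4.34 CPM. N3 alone overlapped WT Treg for Ccr3, which passed only without E2 and N3 (log2 fold change 3.91 ± 0.62, edgeR adjusted p = 0.021). Of 30 trafficking receptors tested, 2 were higher (Ccr1 and Cxcr6) and 1 lower (Cxcr4), with a median of 0.33. Without E2 and N3 the counts were 3 and 1. With limma, Ccr2, Ccr3, Gpr15 and S1pr4 were also higher and Ccr6 and Ccr9 lower. Ccr9, a receptor for gut homing, was at 5.44 to 20.3 CPM against 43.0 to 46.5 CPM without overlap (log2 fold change -1.86 ± 0.43, edgeR adjusted p = 0.0842).

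Ltb4r1 and Cysltr1, receptors for leukotrienes (lipid attractants made by myeloid cells), were among the called genes, while Cysltr2, named after its value was seen, had -0.38 (-0.95 to 0.19). Ltb4r1, which encodes the leukotriene B4 receptor BLT1 (chromosome 14, 55765962 to 55768494), was at 179, 90.9, 80.5, 157 and 50.3 CPM against 2.60, 9.27 and 13.7 CPM. Its log2 fold change was 3.54 ± 0.56 (edgeR adjusted p = 0.0192), and LNGFR codes stood higher still at 305 to 688 CPM. Cysltr1, a receptor for cysteinyl leukotrienes, was at 122, 110, 113, 143 and 82.0 CPM against 28.6, 6.08 and 13.4 CPM (log2 fold change 3.0 ± 0.48, adjusted p = 0.0192). The gene model Gm5127, also called, overlaps Cysltr1 on the opposite strand of chromosome X. Whether counting used strand is not given in the sources used here, so reads of this pair cannot be told apart.

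Il4, the cytokine that drives type 2 responses (chromosome 11, 53602982 to 53618669), was at 44.5, 29.1, 27.5, 23.0 and 44.1 CPM in FOXP3 codes and 10.4, 4.32 and 3.16 CPM in WT Treg codes. Il4 had a log2 fold change of 2.81 ± 0.41 (edgeR adjusted p = 0.0154), and LNGFR codes held 91.8 to 126 CPM, above every FOXP3 code. Tnfsf8, the ligand of CD30 (chromosome 4, 63831308 to 63861347), was at 66.6, 72.4, 64.6, 51.6 and 87.9 CPM against 23.4, 16.0 and 18.6 CPM, with LNGFR codes at 267 to 338 CPM. Tnfsf8 had a log2 fold change of 1.86 ± 0.28 (edgeR adjusted p = 0.0154). For both genes FOXP3 codes lay between the other groups without touching either.

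Msc, a transcriptional repressor of the basic helix-loop-helix family (chromosome 1, 14753346 to 14755992), was almost absent from WT Treg, with 7 counts over the 3 codes. It was at 9.98, 14.8, 10.1, 31.8 and 10.9 CPM in FOXP3 codes against 0, 0.320 and 0.658 CPM, with LNGFR codes between them at 1.74 to 5.81 CPM (log2 fold change 5.03 ± 0.73, edgeR adjusted p = 0.0154). Fam20a, which encodes a pseudokinase of the secretory pathway, was at 69.8, 55.1, 67.7, 94.7 and 33.7 CPM against 9.11, 2.398 and 9.48 CPM (log2 fold change 3.29 ± 0.50, adjusted p = 0.0154), and LNGFR codes held 19.3 to 33.1 CPM. In these genes FOXP3 codes exceeded both other groups.

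Further named genes higher in FOXP3 cells were Pltp, a phospholipid transfer protein (log2 fold change 4.17), Fcgrt, the neonatal Fc receptor (3.71), Vipr1, a receptor for vasoactive intestinal peptide (2.71), and Yod1 (2.15). N3 stood out among FOXP3 codes in both, with 154 CPM of Pltp where the rest had 20.4 to 32.7 CPM, and 23.5 CPM of Fcgrt where the rest had 5.12 to 10.5 CPM. Pltp and Fcgrt were also higher without E2 and N3, at 3.13 (adjusted p = 0.00955) and 3.35 (adjusted p = 0.00955). The part of the B-cell transcripts of N3 in these values was otherwise not tested. With 1 code left out, the call for Pltp ended without F1, F2, F5, N2, E2, L1, G2 or G3 (edgeR adjusted p of up to 0.0837). That for Fcgrt ended only without L1 (adjusted p = 0.0557). The remaining calls, named after their values were seen, were Evi2a, Podnl1, Stc2, C030034L19Rik, Gm43305, Gm17745, Gm5127, 1700012B07Rik and Gm49980. Gm43305 (chromosome 14, 54292443 to 54297456) was at 39.9 to 62.3 CPM in FOXP3 codes and 0 to 1.76 CPM in WT Treg codes. The last 2 rest on 2 counts and 1 count in all of WT Treg.

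**Figure D4:**
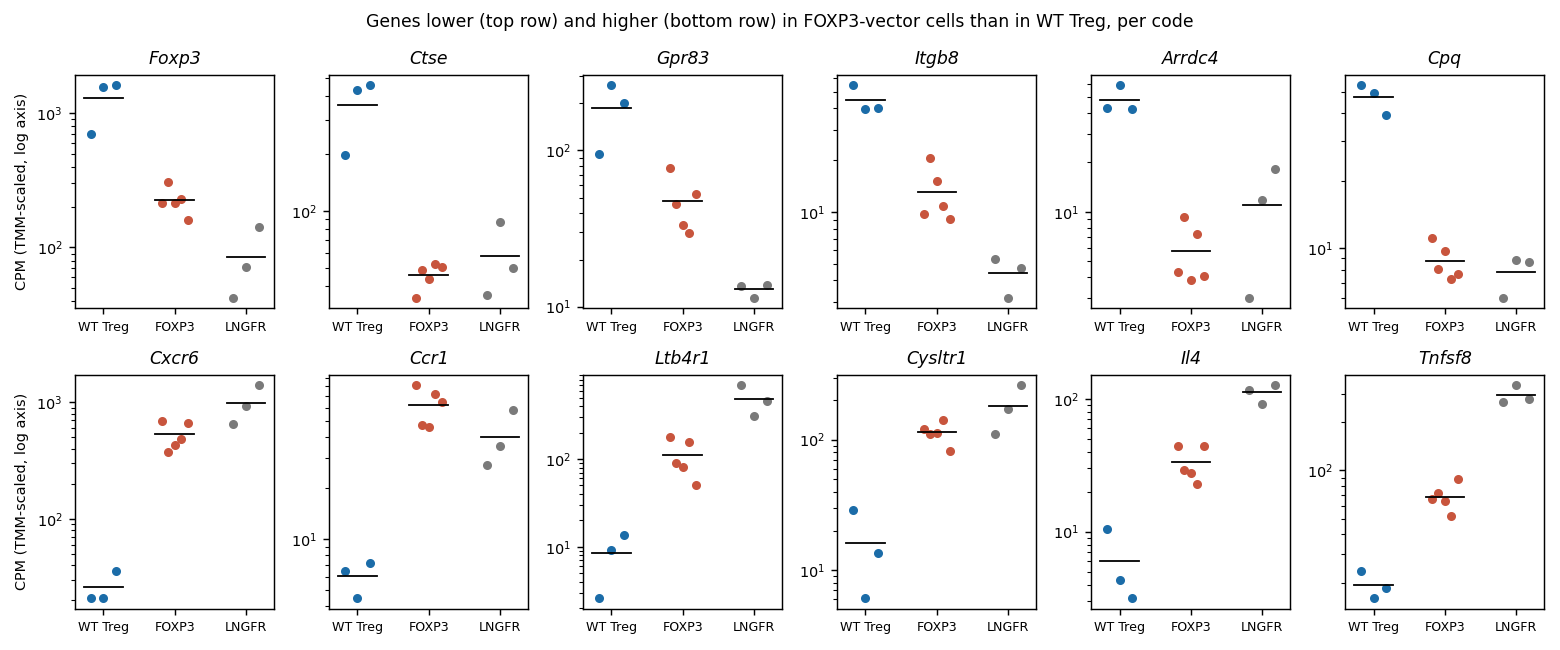
Each point is 1 code and each line the mean of its group, as TMM-scaled CPM on log axes, for 6 genes lower in FOXP3 cells (top row) and 6 higher (bottom row), with WT Treg, FOXP3 and LNGFR codes side by side. FOXP3 and WT Treg codes are apart in all 12 genes. FOXP3 codes lie between the other groups for Foxp3, Gpr83, Itgb8, Ltb4r1, Il4 and Tnfsf8, and overlap the LNGFR codes for Ctse, Arrdc4, Cpq, Cxcr6, Ccr1 and Cysltr1.

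Removing E2 and N3 brought up further genes, of which the largest changes are given. Myo6, an actin motor, was at 159, 119, 176, 148 and 45.2 CPM in FOXP3 codes and 35.1, 8.95 and 8.16 CPM in WT Treg codes, where E2 was highest. Its log2 fold change went from 3.12 (edgeR adjusted p = 0.0713) to 4.14 (adjusted p = 0.00955). Anxa1, which encodes the inflammation-limiting protein annexin A1, was at 79.9, 69.4, 65.5, 111 and 31.0 CPM against 29.9, 1.44 and 8.82 CPM, and had 3.96 without E2 and N3 (adjusted p = 0.0175). Ifi204, Ncam1, Prune2, Calca and Thsd7b were also higher there. Calca had no count in G4 or L1 and 3.90 CPM in E2, so it is given without a fold. Thsd7b was at 72.9 CPM in E2 and at 0.480 and 1.84 CPM in G4 and L1, and its log2 fold change turned from -0.79 to 3.49.

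Genes called lower only without E2 and N3 included Tnfsf11, the cytokine RANKL, at 5.34, 5.43, 6.503, 4.92 and 5.06 CPM in FOXP3 codes and 13.0, 32.9 and 28.0 CPM in WT Treg codes. The groups did not overlap, and the log2 fold change was -2.45 ± 0.48 (edgeR adjusted p = 0.0475). Dusp2, a phosphatase induced by T cell receptor signals that switches off MAP kinases, was at 62.8, 50.8, 54.0, 46.9 and 54.9 CPM against 109, 218 and 214 CPM (-2.01 ± 0.37, adjusted p = 0.0375). The peptide transporter Slc15a2 (-2.82), the polarity gene Pard6g (-2.09), the circadian factor Dbp (-2.02), Colq (-1.84) and Klc3 (-1.84) were called with it. Cd8b1, the CD8 beta chain and a marker of CD8 T cells, was at 8.01, 6.63, 4.58, 9.44 and 3.88 CPM in FOXP3 codes and 6.51, 33.4 and 24.6 CPM in E2, G4 and L1. The groups overlapped through E2, and without E2 and N3 the difference was -2.01 ± 0.31 (edgeR adjusted p = 0.0202). Cd8b1 was the only 1 of 4 tested CD8 and NK markers called there. The median of these markers was -1.445 with all codes and 0.308 without E2 and N3, and Cd8a had too few counts to be tested. The part of CD8 T cells in the other results was not tested.

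Genes kept at WT Treg level, with the whole 95% interval within 2-fold, included 7 of 19 tested genes of the IL-2 receptor pathway, beside 26.0% of all genes. Treg depend on this pathway. With edgeR 0 of the 19 were called in either direction and the median was 0.03, while limma called Osm higher (adjusted p = 0.0188) and Stat5b (0.0131) and Socs1 (0.0101) lower. Il2ra, the high-affinity IL-2 receptor chain CD25, was at 727, 577, 636, 621 and 458 CPM in FOXP3 codes and 327, 922 and 873 CPM in WT Treg codes. FOXP3 codes lay between E2 and the other WT Treg codes, and the log2 fold change was -0.23 with an interval of -0.97 to 0.51. LNGFR codes held 220 to 308 CPM of Il2ra. Cish, an inhibitor induced by STAT5, had 0.12 (-0.52 to 0.77), Socs2 0.19 (-0.43 to 0.81), Jak3 0.03 (-0.90 to 0.96), Pim1 -0.26 (-0.86 to 0.34), Il7r 0.28 (-0.39 to 0.94) and Il15ra -0.20 (-0.84 to 0.44). Without E2 and N3 the intervals of Il2ra, Jak3, Pim1 and Il15ra passed 2-fold on one side, to -1.04, -1.24, -1.09 and -1.10, and of the 7 only Cish, Socs2 and Il7r stayed within it. Socs1, a further feedback inhibitor of cytokine signals, was not among them, at 33.0 to 56.8 CPM against 67.5 to 109 CPM without overlap (log2 fold change -1.10 ± 0.28, edgeR adjusted p = 0.0866).

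In the Treg list, 4 of 40 genes were kept, beside 26.0% of all genes: Il2ra, Ccr8, Prdm1 and Socs2. Ccr8, a chemokine receptor of activated Treg and type 2 helper cells, was at 139, 121, 126, 112 and 123 CPM in FOXP3 codes and 103, 156 and 177 CPM in WT Treg codes, so that FOXP3 codes lay above E2 and below the other WT Treg codes. Its log2 fold change was -0.24 (-0.83 to 0.36), and without E2 and N3 the interval of -1.04 to 0.20 passed 2-fold. Prdm1, which encodes the effector Treg regulator Blimp-1, had -0.10 (-0.62 to 0.42). Of 16 checkpoint receptors 4 were kept (Pdcd1, Cd226, Cd96 and Cd200r1), beside the same 26.0% of all genes. Ctla4, Icos and Tnfrsf18, chosen after their values were seen, were neither called nor kept. Ctla4 had 0.37 (-0.46 to 1.21), Icos 0.32 (-0.48 to 1.11), and Tnfrsf18, which encodes GITR, 0.19 (-0.74 to 1.12). Tigit, an inhibitory receptor, was at 666 to 928 CPM against 262 to 584 CPM without overlap (log2 fold change 0.70 ± 0.32, edgeR adjusted p = 0.294).

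Of 30 transcription factors that work with FOXP3 or shape Treg, 0 were called, with a median of 0.05. Kept were 10 of the 30 (Runx1, Nfatc1, Nfatc2, Irf4, Batf, Foxo1, Foxo3, Lef1, Myb and Prdm1), beside 26.0% of all genes. In limma's fit 3 were higher (Foxp1, Satb1 and Maf) and 5 lower (Ikzf2, Ikzf4, Gata1, Foxp4 and Bcl11b). The proximal T cell receptor machinery had 9 of 22 genes kept, beside the same 26.0%, with Cd3e, Cd247, Lck and Lat among the 9, and 0 called. Themis, which tunes that signal, was at 73.0, 61.7, 69.1, 72.4 and 61.4 CPM in FOXP3 codes and 50.8, 14.6 and 10.8 CPM in WT Treg codes. E2 was the exception among WT Treg codes for Themis, which passed only without E2 and N3 (log2 fold change 2.45 ± 0.39, edgeR adjusted p = 0.021).

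Of 13 tested genes that are commonly lower in Treg than in conventional T cells, Tnfsf8 alone was higher and 0 were lower, with a median of 0.28. Without E2 and N3, 3 were higher: Tnfsf8, Themis and Pde3b, a cyclic AMP phosphodiesterase that FOXP3 normally represses. Pde3b turned from -0.60 to 2.43 (edgeR adjusted p = 0.0268). At an unadjusted p under 0.05, 5 of the 13 were higher and 3 lower, beside 678 higher and 1869 lower of all 15462 genes. Igfbp4, which binds insulin-like growth factors, had -2.63 (edgeR adjusted p = 0.0909) and Id3, an inhibitor of E proteins, -0.97 (0.245), and limma called both lower, at -2.71 (adjusted p = 0.0192) and -1.25 (0.0419). Cd40lg, the ligand by which helper T cells activate B cells, was at 24.8 to 38.9 CPM against 10.4 to 16.9 CPM without overlap (log2 fold change 1.05 ± 0.27, adjusted p = 0.0898).

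Among 19 suppressive mediators, 1 was lower (Itgb8), 0 were higher and 2 were kept (Pdcd1 and Cd274, beside 26.0% of all genes), with a median of 0.37. With E2 and N3 left out the median was 0.09, Pdcd1 was still kept (-0.83 to 0.94) and Cd274 was not (-1.25 to 0.48). Il10, the anti-inflammatory cytokine, was at 222, 69.2, 185, 123 and 174 CPM in FOXP3 codes and 11.7, 35.01 and 41.5 CPM in WT Treg codes. The groups did not overlap, and the log2 fold change of 2.33 ± 0.44 just missed the threshold (edgeR adjusted p = 0.0523). Without E2 and N3 it was 1.97 ± 0.43 and further from the threshold (edgeR adjusted p = 0.0915). LNGFR codes were at 248.6 to 253 CPM of Il10. Lag3, an inhibitory receptor, was at 235, 154, 245, 193 and 309 CPM against 59.9, 101 and 84.8 CPM, also without overlap (1.46 ± 0.35, adjusted p = 0.0842). Leaving out E2 and N3 gave 1.16 ± 0.36 for Lag3 (edgeR adjusted p = 0.228). With limma both passed, along with Lgals1, while Lrrc32, Itgb8 and Itgav were lower.

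Effector programmes gave few calls. Of 11 tested T helper 2 genes, Il4 alone was higher, with a median of 0.49, and without E2 and N3 Ptgdr2, a prostaglandin D2 receptor, joined it. Gata3, the regulator of that lineage, had a log2 fold change of 0.75 (-0.23 to 1.73). None of 18 type 1 and cytotoxic genes was called by edgeR. An unadjusted p under 0.05 was found for 6, 5 of them higher, beside 678 higher and 1869 lower of all 15462 genes. Ccl5, a chemokine, was at 54.0, 86.7, 80.8, 59.0 and 21.6 CPM against 6.51, 10.4 and 18.6 CPM, and Nkg7, a granule protein gene, at 140 to 202 CPM against 14.3 to 62.0 CPM. Both kept the groups apart and missed the threshold (adjusted p = 0.104 and 0.0933), and both passed with limma (adjusted p = 0.00218 and 0.000417). Il17a, Il17f and Il22 had too few counts to be tested, and 0 of 5 tested T helper 17 genes were called. Follicular helper genes gave 1 call of 15, again Il4. Of 19 genes of tissue Treg and the ST2 receptor, edgeR called 0. Without E2 and N3, Pparg and Ptgdr2 were higher, beside 0.357% of all genes. Limma called 5 of the 19 higher (Il1rl1, Ptgdr2, Il10, Id2 and Maf) and 2 lower (Il1r2 and Dgat2), beside 2.28% and 4.61% of all genes.

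Receptors and mediators of TGF-beta signals gave 0 calls of 13 with edgeR, and a median of -0.29. Tgfbr1, the type I receptor, was at 38.4, 40.7, 29.9, 34.4 and 39.9 CPM in FOXP3 codes and 69.0, 79.5 and 83.5 CPM in WT Treg codes. The codes were tight in both groups, and the log2 fold change was -1.08 ± 0.21 (edgeR adjusted p = 0.0519), or -1.18 ± 0.22 without E2 and N3 (adjusted p = 0.0379). Tgfbr3, the co-receptor betaglycan, went the other way, at 10.8 to 32.4 CPM against 3.29 to 6.51 CPM, and passed without E2 and N3 at 2.08 ± 0.38 (adjusted p = 0.0362). With limma, Tgfbr3 was higher and Tgfbr1, Tgfbr2 and Smad3 were lower, beside 2.28% and 4.61% of all genes. Smad4, Smad7, Ski, Skil and Ldlrad4 were kept, beside 26.0% of all genes.

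**Figure D5:**
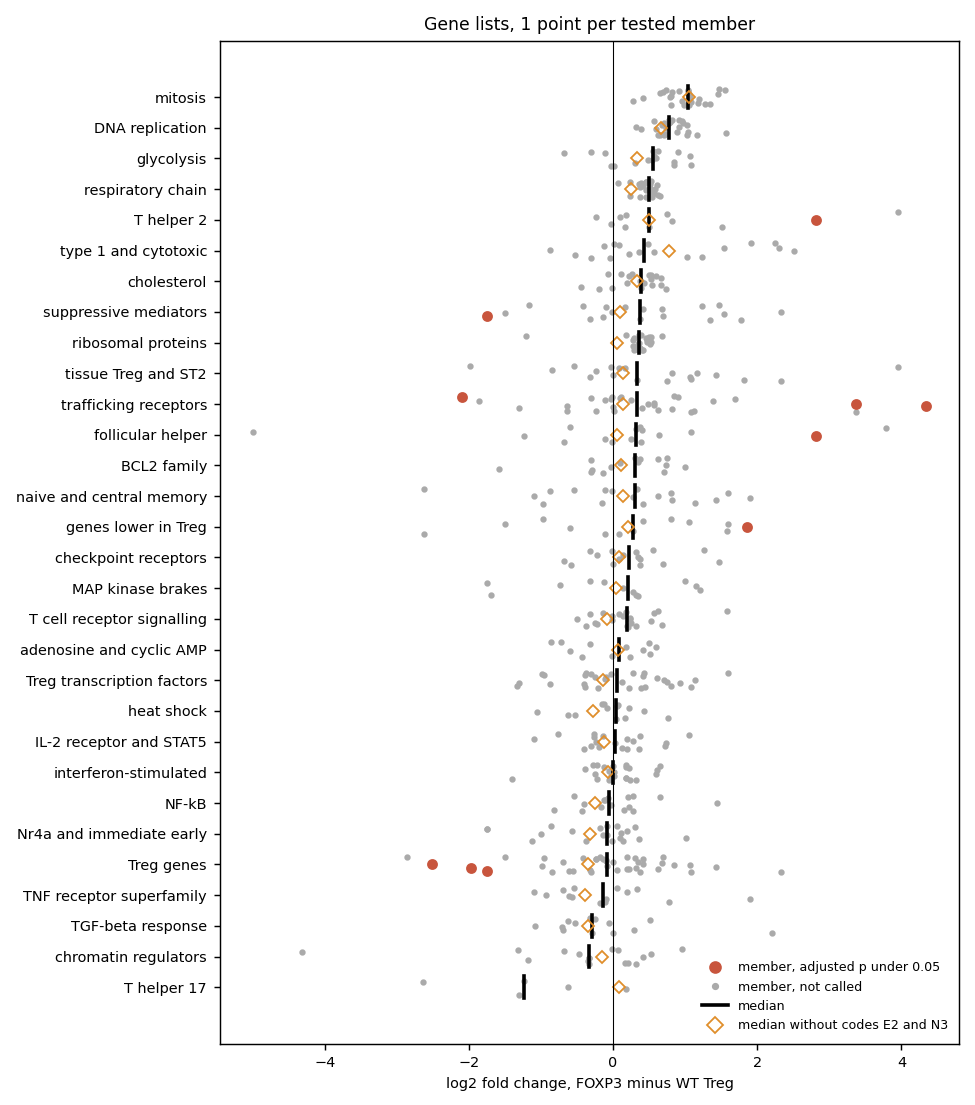
Each point is a tested member of the gene list named at left, placed by its log2 fold change of FOXP3 minus WT Treg. Red points have an adjusted p under 0.05, black bars are medians and open diamonds medians without codes E2 and N3. Mitosis and DNA replication lists have every member above 0 and no call, and the T helper 17 median moves from -1.24 to 0.08.

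Cell-cycle genes had log2 fold changes above 0 in FOXP3 cells, with 0 calls by edgeR. With limma 1 mitosis gene (Mad2l1, adjusted p = 0.0186) and 4 replication genes (Ccne1, E2f2, Cdt1 and Tk1) were higher. All 25 mitosis genes had a log2 fold change above 0, with a median of 1.04, beside 7789 of 15462 genes and a median of 0.01 over all. Their summed CPM was 2017, 1917, 2519 and 2905 in F1, F2, F5 and N2 but 520 in N3, against 355 in E2, 951 in G4 and 1358 in L1. N3 thus fell below G4 and L1, and 0 of the 25 genes kept the groups apart. Without E2 and N3 the median was 1.05 and still 0 were called. Mad2l1, a spindle checkpoint gene, was at 76.4, 75.2, 93.7, 91.1 and 29.6 CPM against 22.1, 38.5 and 42.9 CPM (log2 fold change 1.04 ± 0.38, edgeR adjusted p = 0.175). All 25 DNA replication genes were also above 0, with a median of 0.77 and 0 calls. At an unadjusted p under 0.05, 6 of the 25 were higher, beside 678 of all 15462 genes.

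Metabolic and housekeeping lists had smaller medians once E2 and N3 were left out. All 25 respiratory chain genes were above 0, with a median of 0.50, or 0.25 without E2 and N3, and 0 were called, none of them at an unadjusted p under 0.05. Ribosomal protein genes had a median of 0.36, and 0.05 without these codes, and 24 of 25 were above 0. Glycolysis had 0.56 and 0.33 over 17 genes. Neither these lists nor those of cholesterol synthesis (20 genes), interferon-stimulated genes (24), NF-kB (16), Nr4a and immediate early genes (20), MAP kinase brakes (12), TNF receptors (14), checkpoint receptors (16), naive and central memory genes (18), BCL2 family (15), chromatin regulators (17), adenosine and cyclic AMP (12) or heat shock (13) had a called member in edgeR's test of all codes. For the interferon-stimulated list the median was 0.01. B-cell markers had a median of 3.09, and 1.18 without E2 and N3, with 0 of 12 called. At an unadjusted p under 0.05, 11 of the 12 were higher, beside 678 of all 15462 genes. A difference in counts of a sorted population can come from fewer cells of a type or less RNA per cell, which cannot be told apart here.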

How the data were processed

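Smart-seq libraries of 1000 sorted cells were sequenced as paired reads of 38 bases after 18 cycles of PCR, per the labels. The values are counts per gene in a table deposited by the authors, and the submitters' processing notes name STAR 2.7.3a, featureCounts, Subread 2.0.0 and the builds mm10 and GRCm38. The handling of multi-mapped reads, like the annotation and the strand setting, is not given in the sources used here. PCR duplicates carry no molecular identifiers.

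Of 55011 genes, 46911 had a count, and 15462 passed filterByExpr. Counts were summed over the 2 libraries of a code. The test was edgeR 4.0.16 (R 4.3.3), quasi-likelihood with robust fit and TMM, on all 3 groups, with Benjamini-Hochberg adjustment over all tested genes. CPM were scaled to 1000000 counts after TMM, except summed marker and mitosis levels, which are scaled to all counts. An SE is the absolute log2 fold change divided by the square root of F, and 95% intervals use t quantiles at the total degrees of freedom (median 13.3). Intervals are per gene and not adjusted. The common biological coefficient of variation was 0.491. On data simulated from these 15462 genes for FOXP3 against WT Treg, 5.97% of genes changed 2-fold, 44.8% of those changed 4-fold and 66.7% of those changed 8-fold were recovered. There, 3.7% of calls were false, and 95.4% of intervals held the true value among genes with a simulated mean above 10 CPM. The changed genes were drawn only from those above a minimum mean CPM. Apart from scaling and the changed genes, all codes were simulated with the same expected levels. The simulation therefore cannot show these rates for data with a code like E2. Gene positions are from GENCODE for GRCm38, matched for 52830 symbols.

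Alternatives were limma 3.58.1 and DESeq2 1.42.0, other scaling, filters, replicate units and codes left out. Members and the 40 gene lists (684 entries) were chosen with earlier results of these data known. Lists are described by counts and medians, without set tests. The text names Foxp3, Ngfr and the 12 largest changes in each direction among called genes with at least 10 CPM in the higher group. It also names up to 8 in each direction called only without E2 and N3. Both sets leave out gene models and genes whose codes overlap between groups. For the second set, overlap was judged without E2 and N3, so some of its genes overlap over all codes. Up to 6 members of each list by smallest p, and kept members, are named as well. Others are marked where named.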

Additional observations from a re-analysis of the deposited data

Results flagged for a closer look

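In 33 values per code checked for a sample far from the rest of the 5 FOXP3 codes, 6 had a highest code whose gap to the next took more than 0.71 of the group's range. Chance marks about 1 in 20 such groups. N3 held 4 of the 6. Its B-cell markers summed to 10500 CPM, against 569 to 1300 CPM in the other codes, its plasma-cell markers to 2780 CPM (298 to 538 CPM) and its stromal and endothelial markers to 164 CPM (92.5 to 105 CPM). Pltp was at 154 CPM in N3 and 20.4 to 32.7 CPM elsewhere. For Ift80 the code F2 stood apart at 37.6 CPM (13.1 to 17.4 CPM), and for Msc the code N2 at 31.8 CPM (9.98 to 14.8 CPM). Pltp, Ift80 and Msc all remained called without E2 and N3, with log2 fold changes of 3.13, -2.32 and 5.02.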

How the results depend on the processing

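The number of genes called higher and lower, 21 and 19, was given by each setting as follows. With size factors of DESeq2 in edgeR it was 29 and 34, without a filter on low counts 404 and 3211, and with at least 5 CPM in at least 3 codes 46 and 115. DESeq2 gave 215 and 896, limma with quality weights 353 and 713, and single libraries with code as a random effect 113 and 273. A fit of FOXP3 and WT Treg codes alone gave 52 and 83, one without the Gm10800 family 21 and 18, and one without E2 and N3 56 and 43. Limma with quality weights and without E2 and N3, chosen after seeing the data, gave 562 and 766. Leaving out 1 code at a time gave 3 to 67 higher and 1 to 1168 lower, the lowest without L1, the highest count of higher genes without G1 and of lower genes without G4. The 10 settings given before these single omissions shared 35 to 40 of the 40 calls. Genes kept within 2-fold numbered 4014, and 206 within 1.5-fold, 8112 with limma, 5018 without E2 and N3, and 1032 to 5526 with 1 code left out. No called gene changed direction in any setting run. Thsd7b, not called with all codes (-0.79), was positive at 3.10 with limma, 2.74 with single libraries, 3.49 without E2 and N3, 3.47 with limma without them and 3.31 without E2, within a range of -1.17 to 3.31 over fits that left out 1 code. The causes of these shifts were not tested. No paired analysis was possible because the FOXP3 and WT Treg codes share no replicate number. Depth limits the WT Treg side most, where E2 holds 1154626 counts.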

Other observations

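CD45.1, the sort marker of the WT Treg, is an allele of Ptprc (chromosome 1, 138062861 to 138175708). Within 25 Mb on either side of Ptprc lay 4 of the 39 called genes with a position (10.3%), namely Acbd6, Ctse, Cxcr4 and Yod1, and 257 of 15151 tested genes with a position (1.7%). Of the tested genes in that window 1.56% were called. Donor strain was not tested. The window was chosen with these genes known.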
